A study of Mus musculus with 16 samples.

Results

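The 84 genes described here are the nuclear genes of the mitochondrial respiratory chain and the ATP synthase, set out by complex. They were taken by name from the gene column of the RNA count table: names that start with Nduf followed by a, b, c, s or v and a digit, the 4 Sdh genes, and names that start with Uqcr, with Cox4 to Cox8, or with Atp5. Of 85 names that matched, 84 held at least 10 counts summed over the 5 RNA libraries, out of 22869 genes in the table. At that minimum, Cox7b2 was kept with 10 counts and Cox8b was left out with 1 count. The 84 genes fell into complex I with 37, complex II with 4, complex III with 8, complex IV with 18 and complex V with 17. The names are older ones: Ndufa4 is today counted with complex IV, Cox7a2l encodes a factor that joins complexes III and IV into supercomplexes, Cox4nb encodes a subunit of a membrane complex of the endoplasmic reticulum, and Atp5s and Atp5sl are not regarded as subunits of the synthase. Ndufab1 and Cyc1, which do encode subunits, fall outside the names, and the subunits encoded by mitochondrial DNA were not analysed here.

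The respiratory chain passes electrons from nutrients to oxygen and stores the energy as a proton gradient across the inner mitochondrial membrane. Complex I takes electrons from NADH and complex II, which is also the succinate dehydrogenase of the citric acid cycle, from succinate. Complex III hands them from coenzyme Q to cytochrome c, complex IV passes them to oxygen, and complex V uses the gradient to make ATP. In β cells, the insulin-producing cells of the pancreatic islet, ATP made from glucose closes potassium channels in the cell membrane, which leads to insulin release.

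The series compared old with young mice in sorted β cells. RNA was sequenced from 3 old libraries, labelled 15, 16 and 17 months, and 2 young libraries of 4 to 6 weeks, all of strain MIP-GFP/Bl6, in which the insulin promoter drives a green fluorescent protein used for sorting. H3K4me1 and H3K27me3 peaks and CpG methylation were held as 1 library each from old C57Bl6 mice labelled 16 to 18 months and from young C57Bl6 mice of 4 to 6 weeks, and H3K27ac peaks as 1 library from the young mice. The design text differs from the labels on 2 points: it gives an older age for the old bisulfite pool, and it names 2 replicas for old H3K27me3, where 1 list was used and it is not known if that list joins both. Per the design text, each RNA library is a pool of 5 to 10 mice, so p-values measure the spread between pools. Here the old libraries are numbered 1 to 3, and the young libraries, whose columns carry no replicate number, are called the shallower and the deeper one.

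Counts over genes came to between 23559908 and 33562822 in old libraries, against 6377619 (shallower) and 12892123 (deeper) in young libraries, so the young libraries carry the larger counting error. In CPM, which are read counts scaled to the library size with TMM factors, the insulin gene Ins1 stood at 231500 to 318200 CPM in old libraries, against 227800 CPM (shallower) and 205600 CPM (deeper) in young libraries, as the label of β cells requires. The 10 β-cell markers summed to 331900 to 437200 CPM in old libraries, against 315000 CPM (shallower) and 256900 CPM (deeper) in young libraries. Ins1 and Ins2 made up most of these sums. By the edgeR test described below, 3 of the 10 markers rose in old libraries (Slc2a2, Iapp and Slc30a8) and none fell. Their log2 fold change of old over young was above 0 for 8 of the 10, with a median of 0.90. Of all genes tested, 3.17% rose, 7.93% fell and 48.2% were above 0. Most markers of other cells had a lower mean in old libraries. The duct markers Krt7 and Cftr, the muscle markers Actc1 and Ckm and the germ-cell marker Dazl had a higher one. For Krt7 the means were 70.4 CPM in old and 42.6 CPM in young libraries. The 5 α-cell markers summed to 902 to 1831 CPM in old libraries, against 2004 CPM (shallower) and 31670 CPM (deeper) in young libraries, the 9 stellate-cell markers to 17.9 to 32.6 CPM, against 552 and 4779 CPM, and the 12 acinar markers to 98.6 to 144 CPM, against 1597 and 2395 CPM. The 5 markers of dividing cells summed to 3.10 to 6.10 CPM in old libraries, against 379 and 387 CPM in young libraries. The part of these other cells in the results below was not tested, and in such bulk samples fewer cells of a type and less RNA per cell cannot be told apart.

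Most of the genes had a higher level in old β cells, but few changed by the test. Of 82 genes that passed the filter on low counts, 6 rose in old cells (7.32%) and 1 fell (1.22%), with edgeR's quasi-likelihood test and an adjusted p under 0.05. Over all 15544 genes tested, 3.17% rose and 7.93% fell. The genes that rose were Sdha of complex II, Ndufa9, Ndufa4 and Ndufb9 of complex I by name, Cox7a2l of complex IV by name and Atp5g3 of complex V. The gene that fell was Cox6b2 of complex IV. Without regard to the threshold, the log2 fold change of old over young was above 0 for 70 of the 82 genes (85.4%), compared with 48.2% of all genes tested. Their median log2 fold change was 0.58, with quartiles of 0.18 and 0.91, while the median of all genes tested was -0.05. At an unadjusted p under 0.05, 21 genes were higher in old cells and 1 was lower (25.6 and 1.22%), where 11.7% of all genes tested were higher and 18.1% lower.

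In 46 of the 82 genes (56.1%) the 3 old libraries all lay above both young libraries, where 24.4% of all tested genes did so. In 2 genes (2.44%), Cox6b2 and Cox4i2, the old libraries all lay below both young ones, where 24.5% of all tested genes did so. The sum over the 84 genes was 5047, 5840 and 4893 CPM in old libraries 1, 2 and 3, against 3688 CPM (shallower) and 3079 CPM (deeper) in young libraries. The old sum was 1.55 times the young sum and the groups did not overlap. The TPM scale divides by transcript length and leaves out the TMM factors. On it the sums were 9069, 9542 and 7498 TPM in the old libraries, against 7138 TPM (shallower) and 6543 TPM (deeper) in young libraries. The groups again did not overlap, but old library 3 was close to the shallower young one.

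The 5 complexes differed in how far their genes stood from 0. The median log2 fold change was 1.22 for complex II, 0.71 for complex I, 0.39 for complex IV, 0.37 for complex V and 0.16 for complex III. This is a description of the gene lists, with no test between complexes. Complex II had the highest and complex III the lowest median in each of 11 settings of the fit, made up of the one used here and 10 alternatives that changed the scaling, the filter, the transcript, the tool or left out 1 library. Without the shallower young library both places were near ties. The medians there were 0.868 for complex II and 0.857 for complex I, and 0.506 for complex III and 0.514 for complex IV. The number of genes past the threshold was less steady. Without old library 1, 2 or 3 in turn, only Sdha rose and only Cox6b2 fell in each fit, and the share of all genes that rose also dropped, to between 0.268 and 0.63%, and that of genes that fell to between 1.81 and 2.63%. Without the shallower young library 15 genes rose and 2 fell, and without the deeper one 16 rose and 3 fell. In these fits calls were also more frequent over all genes, at 8.06% rising and 12.1% falling in the first and 13.9 and 18.2% in the second. Each of these 2 fits has 1 young library, which is assumed to vary like the old ones. Sdha and Cox6b2 were past the threshold in all 11 settings.

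**Figure D1:**
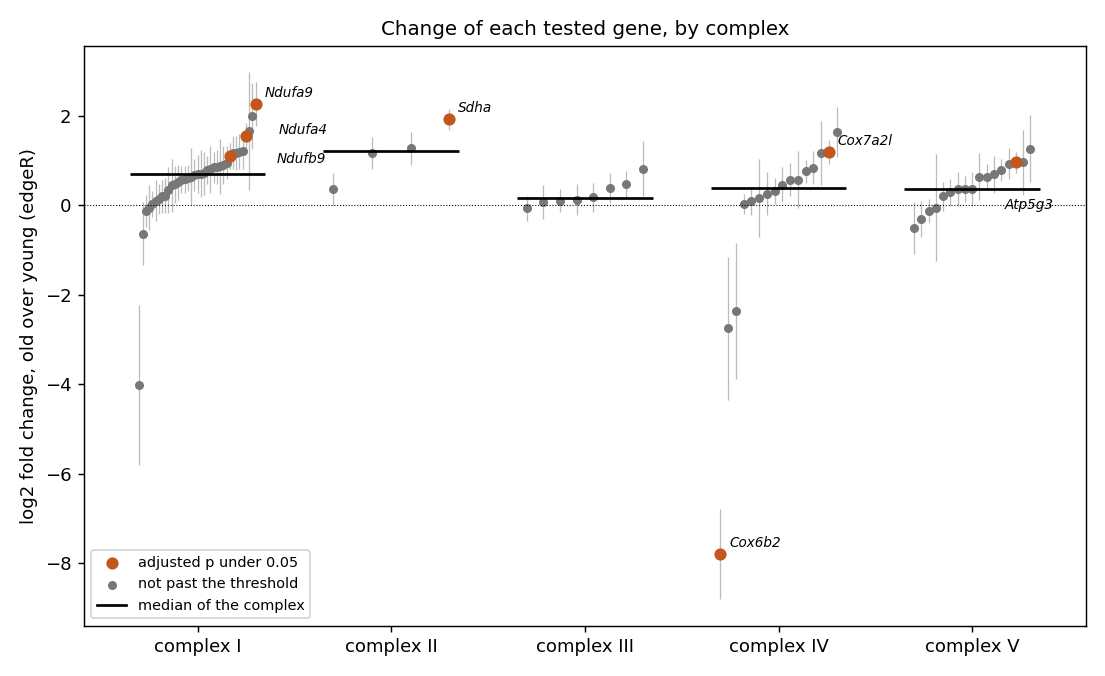
Each point is 1 of the 82 tested genes, with its log2 fold change of old over young from edgeR on the vertical axis and its complex on the horizontal one. Grey bars are the standard error (SE) of the model, black lines are the median of a complex, and orange points have an adjusted p under 0.05. Complex II sits highest, with a median of 1.22, and complex III lowest, with 0.16.

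**Figure D2:**
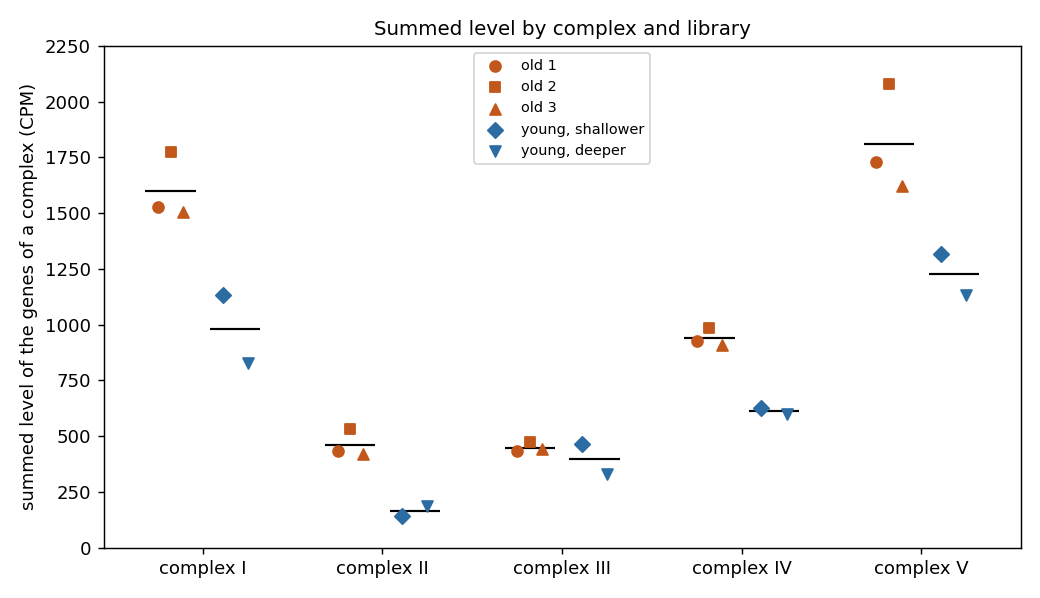
The vertical axis gives the summed CPM of the genes of a complex, with old libraries in orange on the left and young libraries in blue on the right of each complex. Each point is 1 library and each line a group mean. Old and young points overlap in complex III and are apart in the other 4 complexes.

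Some short motifs were more frequent at the starts of these genes than at all starts, though each was found at a minority of them. RefSeq promoter windows of 300 bases (250 before to 50 after the start, build GRCm38.p6) matched 68 of the 84 genes by symbol, with 74 windows. 4 short motifs were searched on both strands, without regard to overlap with each other. GCGCATGCG, a core of the sites of NRF1, a regulator of respiratory genes, was in 10.8% of these windows and in 1.75% of all 32851 windows. CCGGAAG, a core of sites of ETS factors such as GABP, was in 21.6% and in 8.86%. AAGATGGCG, a core of YY1 sites, was in 12.2% and in 1.40%, and CAAGGTCA, the core of the estrogen-related receptors, was in 5.40% and in 1.56%. The windows held a median of 19 CpGs, compared with 7 in all windows. The NRF1, ETS and YY1 motifs contain CG, and the shares were not adjusted for CpG content. A match describes letters and is not a binding site. None of the 4 was found in the windows of Sdha, Ndufa4 and Cox7a2l, which rose in old cells. The windows below show 3 genes that carry motifs, of which 2 rose, and Cox6b2, the gene that fell, which carries none of the 4. They run 5′ to 3′ on the gene's strand, which is the minus strand in each case, with motif letters in capitals.
Atp5g3, chr2:73911277-73911576: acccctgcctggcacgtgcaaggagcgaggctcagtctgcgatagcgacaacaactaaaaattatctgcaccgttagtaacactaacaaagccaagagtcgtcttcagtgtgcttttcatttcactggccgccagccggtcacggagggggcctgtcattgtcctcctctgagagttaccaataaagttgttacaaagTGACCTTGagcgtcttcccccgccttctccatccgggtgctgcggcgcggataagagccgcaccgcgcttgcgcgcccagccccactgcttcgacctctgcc
Ndufa9, chr6:126849095-126849394: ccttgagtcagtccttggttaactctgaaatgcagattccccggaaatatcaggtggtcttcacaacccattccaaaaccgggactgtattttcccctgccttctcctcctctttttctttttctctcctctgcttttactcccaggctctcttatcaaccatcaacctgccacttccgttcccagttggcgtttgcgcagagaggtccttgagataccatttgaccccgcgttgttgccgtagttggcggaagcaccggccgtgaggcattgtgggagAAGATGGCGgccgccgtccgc
Cox6a1, chr5:115348909-115349208: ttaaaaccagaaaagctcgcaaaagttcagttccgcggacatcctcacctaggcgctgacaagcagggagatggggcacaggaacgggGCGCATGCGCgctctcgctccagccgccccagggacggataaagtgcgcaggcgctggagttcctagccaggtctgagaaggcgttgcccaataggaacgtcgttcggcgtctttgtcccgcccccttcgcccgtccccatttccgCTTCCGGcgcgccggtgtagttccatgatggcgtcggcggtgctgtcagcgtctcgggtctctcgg
Cox6b2, chr7:4753045-4753344: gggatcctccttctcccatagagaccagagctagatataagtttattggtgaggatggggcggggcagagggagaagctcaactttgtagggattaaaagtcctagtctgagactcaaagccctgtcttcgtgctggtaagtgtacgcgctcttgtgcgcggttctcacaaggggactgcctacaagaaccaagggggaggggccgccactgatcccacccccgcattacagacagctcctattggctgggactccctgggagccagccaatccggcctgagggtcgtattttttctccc

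In the Atp5g3 window the capitals mark the receptor motif on the minus strand of the window, and in the Ndufa9 window the YY1 motif just inside the transcript. In the Cox6a1 window the first run in capitals matches the NRF1 motif on both strands and the second matches the ETS motif. The Cox6b2 window held 10 CpGs, the Atp5g3 window 21, the Ndufa9 window 15 and the Cox6a1 window 32. Of all 84 genes, 26 (31.0%) had the start of a gene on the other strand within 1000 bases, compared with 10.9% of all genes. Among these pairs were Cox4i1 with Cox4nb, Sdha with Ccdc127, Sdhd with Timm8b and Atp5j with Gabpa, which encodes a subunit of GABP.

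Complex II had the highest median log2 fold change of the 5 complexes, and Sdha the smallest adjusted p of the 82 tested genes. Sdha, the subunit that holds the flavin and oxidises succinate, lies at chr13:74459703-74487688 on the minus strand (build mm9, used for all positions of genes, peaks and CpGs). Its level was 247, 289 and 240 CPM in old libraries 1, 2 and 3, against 65.6 CPM (shallower) and 70.1 CPM (deeper) in young libraries. All 3 old libraries stood far above both young ones, and both groups were tight. The log2 fold change was 1.93 (SE 0.24, adjusted p = 0.00547 with edgeR), a 3.81-fold difference. Ccdc127, which starts on the other strand beside Sdha, had a log2 fold change of 0.50 (SE 0.50, adjusted p = 0.546 with edgeR).

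Sdhc, one of the pair of membrane anchors, had 73.8, 94.4 and 75.8 CPM in old libraries, against 22.6 CPM (shallower) and 44.4 CPM (deeper) in young libraries. Sdhd, the other anchor, had 85.2, 120 and 71.5 CPM in old libraries, against 30.5 CPM (shallower) and 51.1 CPM (deeper) in young libraries. Neither gene's groups overlapped, but both missed the threshold, with log2 fold changes of 1.28 (adjusted p = 0.0589) and 1.17 (adjusted p = 0.0695) by edgeR. Both passed it without a filter on low counts, without the deeper young library, where the spread comes from the old libraries alone, and with DESeq2. Sdhb, the iron-sulfur subunit that links the flavin to the anchors, had 28.2, 26.99 and 34.6 CPM in old libraries, against 24.7 CPM (shallower) and 21.7 CPM (deeper) in young libraries. Its log2 fold change was 0.37 (SE 0.36, adjusted p = 0.533). Per length, Sdha averaged 137 TPM, Sdhd 109 TPM, Sdhc 104 TPM and Sdhb 41.5 TPM in old cells, where Sdha led the 4 genes, while the means in young cells lay between 37.5 and 55.9 TPM. The 4 genes summed to 434.7, 530.2 and 421.7 CPM in old libraries, against 143.3 CPM (shallower) and 187.3 CPM (deeper) in young libraries, a ratio of 2.80.

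Of the 37 complex I genes, 3 rose, none fell, and 33 had a log2 fold change above 0. Over all genes tested, 3.17% rose, 7.93% fell and 48.2% were above 0. Ndufa9, an accessory subunit that helps to hold the matrix arm to the membrane arm, lies at chr6:126771881-126799162 on the minus strand. It had 39.2, 54.7 and 22.6 CPM in old libraries, against 7.28 CPM (shallower) and 8.83 CPM (deeper) in young libraries. The old libraries differed among themselves by more than the young ones, but the groups did not overlap. Its log2 fold change was 2.27 (SE 0.50, adjusted p = 0.0292 with edgeR), the highest of the 82 tested genes. Ndufb9, an accessory subunit of the membrane arm at chr15:58765365-58771044 on the plus strand, had 68.4, 71.2 and 84.3 CPM in old libraries, against 32.7 CPM (shallower) and 36.5 CPM (deeper) in young libraries. It rose by a log2 fold change of 1.11 (SE 0.28, adjusted p = 0.0452 with edgeR). Ndufa4, at chr6:11850373-11857446 on the minus strand, had 77.2, 102.3 and 87.4 CPM in old libraries, against 28.2 CPM (shallower) and 31.9 CPM (deeper) in young libraries. Both groups were tight and far apart, with a log2 fold change of 1.56 (SE 0.29, adjusted p = 0.0186 with edgeR). Each of the 3 calls was lost when any 1 old library was left out, and that of Ndufb9 also with RLE size factors and with library size as the sole scaling.

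The 7 core genes of the matrix arm, which carry NADH oxidation, the iron-sulfur clusters and the coenzyme Q site, all had a log2 fold change above 0, with a median of 0.72, and none passed the threshold. Ndufs1, the largest iron-sulfur subunit, had 59.2, 85.4 and 48.1 CPM in old libraries, against 23.2 CPM (shallower) and 33.4 CPM (deeper) in young libraries, and Ndufs8, which carries clusters near the coenzyme Q site, had 27.3, 34.3 and 30.8 CPM, against 12.9 and 13.8 CPM. In both genes every old library was above every young one, at adjusted p values of 0.0761 and 0.0779 by edgeR. Ndufs3 and Ndufs7, partners in the same arm, had log2 fold changes of 0.72 and 0.47, and Ndufv1 and Ndufv2, the subunits that take electrons from NADH, 0.14 and 0.35. Both Ndufv genes turned below 0 without the deeper young library, at -0.20 and -0.21, and Ndufv1 also by library size alone, at -0.02.

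The 29 accessory genes had a median of 0.71, with 26 above 0. At the low end stood Ndufa5, with 14.8, 10.96 and 9.91 CPM in old libraries, against 31.5 CPM (shallower) and 5.43 CPM (deeper) in young libraries. The young libraries lay on either side of the old ones. Ndufb6, at the high end, had 17.0, 17.6 and 13.4 CPM in old libraries, against 6.54 CPM (shallower) and 1.59 CPM (deeper) in young libraries, and a log2 fold change of 2.0 that missed the threshold (adjusted p = 0.113 with edgeR). Ndufa4l2, a paralog of Ndufa4 known as a target of hypoxia-inducible factor and not regarded as a standard subunit, had 0.151, 0.577 and 0.286 CPM in old libraries, against 0 (shallower) and 11.2 CPM (deeper) in young libraries. The deeper young library was thus far above the other 4. The stellate-cell markers summed to 4779 CPM in that library and to 552 CPM in the shallower one, where Ndufa4l2 was at 0, and their part in its level was not tested. The sum over complex I was 1527, 1773 and 1504 CPM in old libraries, against 1134 CPM (shallower) and 826.9 CPM (deeper) in young libraries, a ratio of 1.63 with no overlap.

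**Figure D3:**
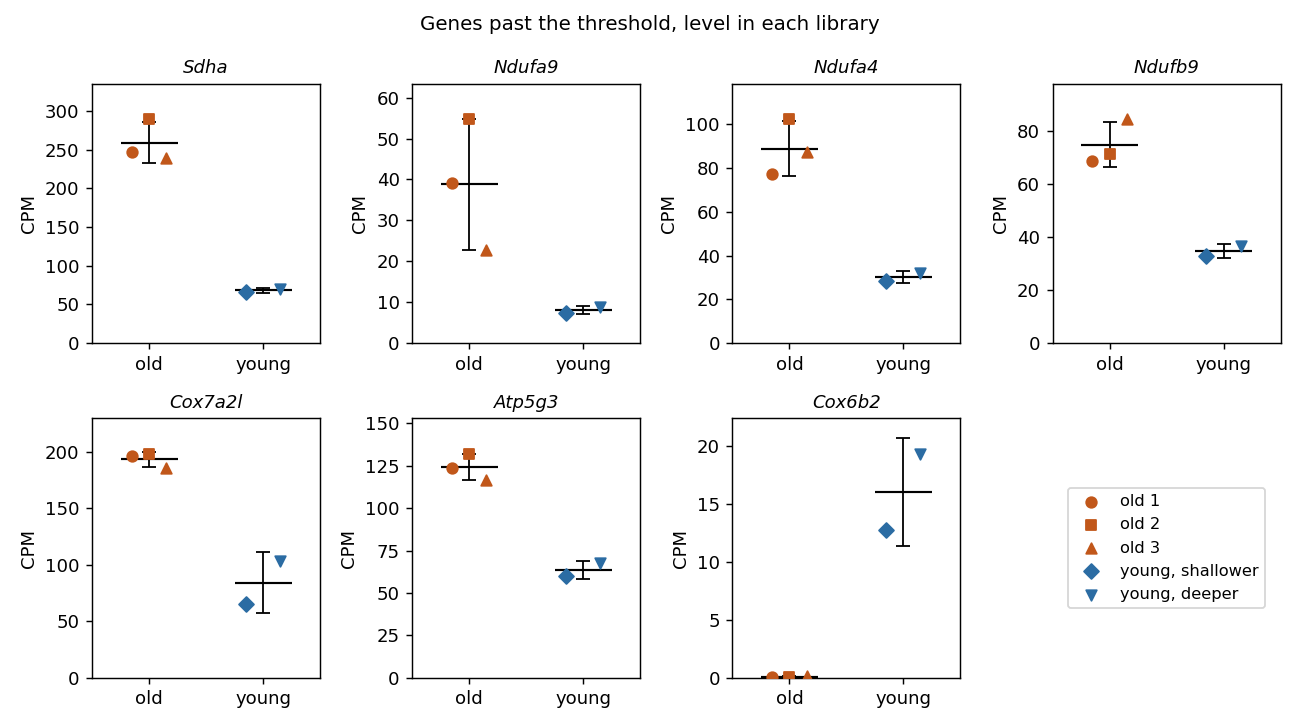
Each panel is 1 of the 7 genes past the threshold, with its CPM in each library on a vertical axis that starts at 0. Orange points are old and blue points young libraries, lines are means and bars the standard deviation. In the first 6 genes every old library is above both young ones, and in Cox6b2 the old libraries lie near 0, against 12.8 and 19.3 CPM in the young libraries.

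Complex III stood nearest to no difference, though its median log2 fold change was 0.506 without the shallower young library. None of its 8 genes passed the threshold, and at an unadjusted p under 0.05 none was higher or lower. At that p, 11.7% of all genes tested were higher and 18.1% lower. Its sum was 433.5, 472.0 and 440.9 CPM in old libraries, against 465.3 CPM (shallower) and 332.2 CPM (deeper) in young libraries, a ratio of 1.13, and the groups overlapped. Uqcrc1 and Uqcrc2, the core proteins that face the matrix, had log2 fold changes of 0.08 and 0.13, and Uqcrfs1, the Rieske iron-sulfur protein, 0.18. Uqcrc2 had 82.8, 116 and 84.3 CPM in old libraries, against 115 CPM (shallower) and 57.9 CPM (deeper) in young libraries, so the young libraries lay further apart than the groups. Uqcrq and Uqcr10, small subunits with the highest per-length levels of the complex, averaged 268 and 255 TPM in old cells, against 287 and 307 TPM in young cells. Uqcrh, the hinge protein that binds cytochrome c1, was the 1 gene of the complex whose old libraries all exceeded both young ones, at 61.3, 72.6 and 57.4 CPM, against 53.3 and 38.5 CPM (adjusted p = 0.328 with edgeR). Uqcrb, which takes part in coenzyme Q binding, had the highest log2 fold change of the complex, 0.82 (SE 0.61). With RLE size factors, 4 of the 8 genes were above 0 and the median of the complex was 0.03.

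In complex IV, whose subunits include tissue isoforms, 1 gene rose and 1 fell among 16 tested. The shares of all genes tested were 3.17 and 7.93%. Cox7a2l, the supercomplex factor, lies at chr17:83901257-83913673 on the minus strand and had 196.4, 198.0 and 186 CPM in old libraries, against 65.2 CPM (shallower) and 103 CPM (deeper) in young libraries. The old libraries were within a narrow range above both young ones. Its log2 fold change was 1.197 (SE 0.27, adjusted p = 0.0318 with edgeR). The call was lost when any 1 old library was left out and with library size as the sole scaling. The 10 subunits that are not tissue isoforms all had a log2 fold change above 0, with a median of 0.52, and none passed, though Cox4i1 and Cox8a were below 0 with RLE size factors, by library size alone and with DESeq2. Cox6a1, the form of subunit 6a found in most tissues, had 92.9, 117 and 102.3 CPM in old libraries, against 64.9 CPM (shallower) and 57.8 CPM (deeper) in young libraries (adjusted p = 0.0873 with edgeR). Cox7a2, the common form of subunit 7a, had 56.2, 57.1 and 45.6 CPM in old libraries, against 6.83 CPM (shallower) and 26.7 CPM (deeper) in young libraries. Its log2 fold change of 1.65 missed the threshold (adjusted p = 0.0894 with edgeR), and its young libraries were far apart. Cox4i1, the common form of the subunit that binds ATP, had 148, 128 and 132 CPM in old libraries, against 135 and 131 CPM in young libraries, a log2 fold change of 0.03. Cox8a, Cox6b1 and Cox7b, the common forms of the other sets, had log2 fold changes of 0.10, 0.31 and 0.58.

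Among the tissue isoforms of complex IV was Cox6b2, the gene with the log2 fold change farthest from 0 among the 82 tested. Cox6b2, known as the testis form of subunit 6b and also found in some tumours, lies at chr7:4703396-4704696 on the minus strand. It had 1, 1 and 3 counts in old libraries, or 0.0377, 0.0304 and 0.143 CPM, against 12.8 CPM (shallower) and 19.3 CPM (deeper) in young libraries. Old libraries were close to 0 and both young libraries well above it. The log2 fold change was -7.80 (SE 1.01, adjusted p = 0.00614 with edgeR), from 5 counts in all old libraries and 353 in the young ones, so its size rests on very few old counts. Per length, Cox6b2 made up 0.0731, 0.0483 and 0.263% of the Cox6b1 and Cox6b2 level in old libraries, against 21.4% (shallower) and 30.8% (deeper) in young libraries. The germ-cell markers Tnp1 and Prm1 were at 0 in all 5 libraries, and the 4 germ-cell markers summed to 1.81, 1.61 and 0.238 CPM in old libraries, against 1.04 CPM in the shallower young library and 0 in the deeper one. Each other list of non-β-cell markers summed lower in every old library than in either young one, as did Cox6b2. For acinar markers the sums were 98.6 to 144 CPM in old libraries, against 1597 CPM (shallower) and 2395 CPM (deeper) in young libraries. The part of any of these cells in the level of Cox6b2 was not tested.

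Cox6a2, the form of subunit 6a known from heart and skeletal muscle, was among the highest of all 84 genes per length, with a mean of 375 TPM in old cells. It lies at chr7:135348949-135349880 on the minus strand, within the span of Itgad on the other strand. Its level was 140, 188 and 165 CPM in old libraries, against 130.5 CPM (shallower) and 15.1 CPM (deeper) in young libraries. The shallower young library was close to the old ones and the deeper one far below. Its log2 fold change was 1.18 (SE 0.72, adjusted p = 0.311 with edgeR). It made up 54.9, 56.6 and 56.7% of the Cox6a1 and Cox6a2 level per length in old libraries, against 61.9% (shallower) and 17.4% (deeper) in young libraries. Itgad, whose reads cannot be told from those of Cox6a2 where counting ignores strand, had 24.97, 25.1 and 24.1 CPM in old libraries, against 22.7 CPM (shallower) and 2.90 CPM (deeper) in young libraries, and was likewise lowest in the deeper young library. The 6 muscle markers summed to 2.64 to 4.86 CPM in old libraries, against 22.4 CPM (shallower) and 10.4 CPM (deeper) in young libraries. Their part in the level of Cox6a2 was not tested.

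The other isoforms were low and uneven. Cox7a1, the heart and muscle form of subunit 7a, had 1.13, 0.698 and 0.191 CPM in old libraries, against 9.06 CPM (shallower) and 0.145 CPM (deeper) in young libraries, and its share of the Cox7a1 and Cox7a2 level per length was 0.859 to 4.00% in old libraries, against 73.3% (shallower) and 1.11% (deeper) in young libraries. Only the shallower young library thus stood out. Cox4i2, the form induced by low oxygen, had 0.0753, 0.152 and 0.429 CPM in old libraries, against 1.19 and 1.09 CPM in young libraries, and was the other gene with all old libraries below both young ones (log2 fold change -2.36, SE 1.52, adjusted p = 0.340 with edgeR). Cox7b2 and Cox8c did not pass the filter: Cox7b2 had 10 counts in all old libraries and 0 in young ones, and Cox8c had 16 counts in old and 5 in young libraries. The sum over complex IV was 924.6, 985.3 and 906.9 CPM in old libraries, against 626.8 CPM (shallower) and 600.9 CPM (deeper) in young libraries, a ratio of 1.53 with no overlap.

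**Figure D4:**
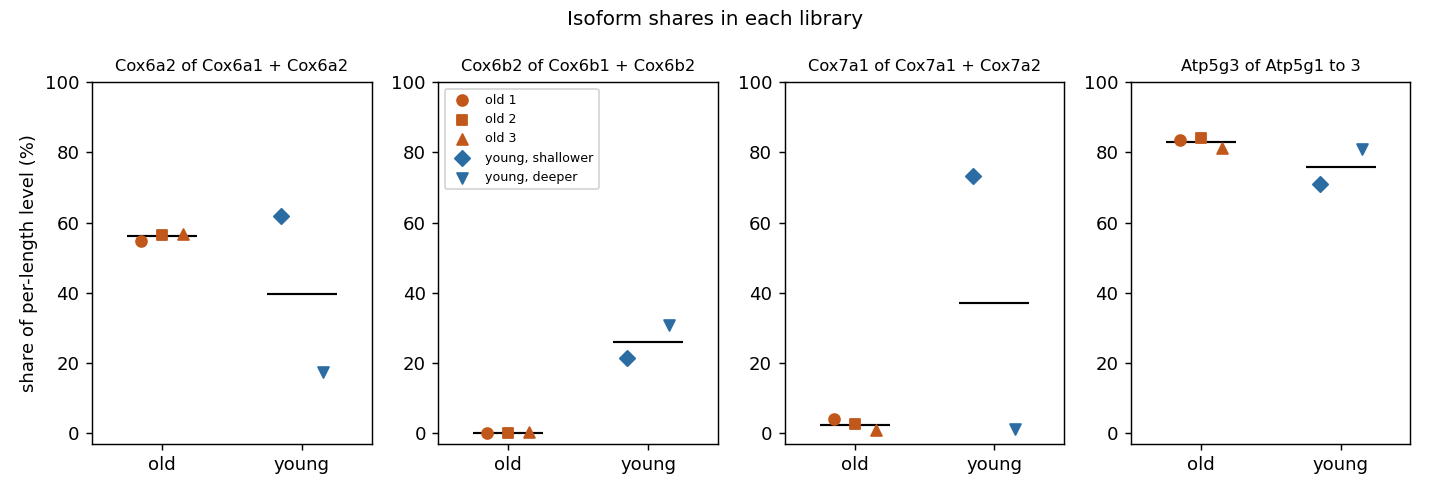
Each panel gives the share of 1 isoform in the per-length level of its set, in %, for each library, with old libraries on the left, young ones on the right and lines at the means. The Cox6b2 share is at most 0.263% in old libraries and 21.4 and 30.8% in young ones, whereas for Cox6a2 and Cox7a1 the 2 young libraries lie apart, at 61.9 and 17.4% and at 73.3 and 1.11%.

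In complex V, 1 of 17 genes rose and none fell, where 3.17% of all genes tested rose and 7.93% fell. Atp5g3 encodes one of 3 forms of the c subunit, which differ in their import signal and give the same ring protein. It lies at chr2:73746507-73749351 on the minus strand and had 124, 132 and 117 CPM in old libraries, against 59.7 CPM (shallower) and 67.5 CPM (deeper) in young libraries. The groups were tight and apart, with a log2 fold change of 0.96 (SE 0.24, adjusted p = 0.0408 with edgeR). The call was lost with RLE size factors, with library size as the sole scaling and when any 1 old library was left out. Atp5g1 had a log2 fold change of 0.36 and Atp5g2, with 1.09 to 2.10 CPM in old libraries against 1.78 and 1.23 CPM in young ones, of -0.05. Atp5g3 supplied 83.5, 84.2 and 81.3% of the per-length level of the 3 forms in old libraries, against 70.9% (shallower) and 81.0% (deeper) in young libraries.

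The 5 genes of the catalytic F1 part had a median log2 fold change of 0.30, and none passed. Atp5b, the catalytic β subunit and by CPM the highest of all 84 genes, had 611, 904 and 533 CPM in old libraries, against 440 CPM (shallower) and 434 CPM (deeper) in young libraries (log2 fold change 0.64, adjusted p = 0.161 with edgeR). Atp5a1, the α subunit, had 421, 491 and 354 CPM in old libraries, against 273 and 213 CPM in young libraries (log2 fold change 0.80, adjusted p = 0.0726 with edgeR). In both genes every old library exceeded every young one. Atp5c1, the central stalk, and Atp5e and Atp5d, its partners, had log2 fold changes of 0.20, 0.30 and -0.12. The 7 genes of the side stalk and membrane part had a median of 0.64, between -0.31 for Atp5o, which joins the stalk to F1, and 0.96 for Atp5l. Of the genes named after the complex only, Atp5s had a log2 fold change of 1.27 and Atp5sl of -0.51. The sum over complex V was 1728, 2080 and 1620 CPM in old libraries, against 1319 and 1131 CPM in young libraries, a ratio of 1.48 with no overlap. 9 of the 84 genes, Atp5c1, Atp5f1, Atp5k, Atp5l, Cox5b, Cox7c, Ndufa12, Ndufs5 and Uqcrh, have a named pseudogene with which they may share reads, so their levels are uncertain.

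Genes that build or control the chain were set beside it. Of 31 tested assembly factors, none passed the threshold, 24 had a log2 fold change above 0, and the median was 0.47. Of all genes tested, 48.2% were above 0. The 9 factors of complex I had a median of 1.56, among them Ndufaf3 with 21.1, 38.3 and 27.1 CPM in old libraries, against 4.90 and 11.6 CPM in young libraries (log2 fold change 1.79, adjusted p = 0.0690 with edgeR). Of 12 genes of coenzyme Q synthesis, 7 carriers and uncoupling genes and 5 subunits or partners outside the names, none passed. Of 14 regulators, 1 rose and 1 fell, where 3.17% of all genes tested rose and 7.93% fell. Esrrg, the estrogen-related receptor γ, known as an activator of mitochondrial genes in β cells, had 27.1, 28.4 and 27.2 CPM in old libraries, against 5.50 and 7.89 CPM in young libraries (log2 fold change 2.04, SE 0.44, adjusted p = 0.0287 with edgeR). Pprc1, a coactivator of the PGC-1 family, had 33.1, 21.2 and 32.0 CPM in old libraries, against 104.6 and 53.8 CPM in young libraries (log2 fold change -1.46, SE 0.38, adjusted p = 0.0468 with edgeR). Ppargc1a, the founder of that family, was lower in every old library but missed the threshold (log2 fold change -2.42, adjusted p = 0.0756).

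Histone marks and methylation were read at the starts of the genes, within 1000 bases, with 1 library per age and so without a test. The 84 genes met a minimum of RNA counts, whereas the starts of all genes include those of silent genes. The shares set beside each other were not adjusted for RNA level. H3K27ac, a mark of active promoters and enhancers, lay within 1000 bases of 56 of the 84 starts in young cells (66.7%), compared with 34.4% of 22495 gene starts. It covered the start itself at 46 of the 84 (54.8%), compared with 28.1% of all gene starts. Within 1000 bases it was found at 4 of 4 starts in complex II, 7 of 8 in complex III, 13 of 17 in complex V, 24 of 37 in complex I and 8 of 18 in complex IV. At Sdha the region ran over chr13:74487184-74488312, across the start, and at Ndufb9 over chr15:58764774-58766069, which ranked 949 of 15754 regions by the authors' score. Of the 7 genes past the threshold, Ndufa9 and Cox6b2 had no H3K27ac region at the start.

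H3K4me1 peaks, which flank active promoters and mark enhancers, lay within 1000 bases of 36 starts in old and 53 starts in young cells (42.9 and 63.1%), compared with 30.0% of all starts in old and 45.6% in young cells. No peak of either age covered the start itself at these genes, but peaks covered only 0.8% of all starts in old and 1.9% in young cells. The peak centres lay a median of 717 bases away in old and 745 bases away in young cells. A peak was listed in old cells only at 5 starts (5.95%, with 4.21% of all starts) and in young cells only at 22 starts (26.2%, with 19.8% of all starts). The old list held 36207 peaks and the young list 77291, and a longer list marks more starts, so these shares are no measure of change. Within 500 bases the excess over all starts was gone, with a peak at 10.7% of these starts and 17.0% of all starts in old cells, and at 31.0 and 30.7% in young cells.

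H3K27me3, the mark of Polycomb repression, was listed at a smaller share of these starts than of all starts: in old cells at 22 starts (26.2%, with 41.5% of all starts) and in young cells at 11 (13.1%, with 28.0%). Listed in old cells only were 14 starts (16.7%, with 18.4% of all starts) and in young cells only 3 (3.57%, with 4.8% of all starts), both near the share of all genes. The doubt about the old list bears on these counts. The 8 starts with a region in both ages included those of Cox4i2, Cox6b1, Cox6b2, Ndufa4l2, Ndufa9 and Sdhc. Some belong to genes with near-absent RNA and some do not. The Cox6b2 start lay within regions over chr7:4690001-4714000 in old and chr7:4700001-4706000 in young cells, with RNA near 0 in old and present in young cells. The regions at Ndufa9, which rose, ran over chr6:126800001-126853000 in old and chr6:126799001-126853000 in young cells. The old region lies upstream of the start, and the young one covers the start and runs upstream from it.

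CpG methylation at the starts was low at both ages. The median over the 84 genes was 7.72% in old and 7.52% in young cells, with 42 genes lower and 42 higher in old cells, and calls per start from 167 to 11636 in old and 109 to 15072 in young cells. In young cells 57 of the 84 starts (67.9%) were under 10%, compared with 45.2% of all starts, but within 2500 bases the shares were close, at 20.2% of these starts and 20.9% of all starts. A single gene (1.19%), Cox7b, passed a difference of 10 percentage points, where 8.83% of all starts did so: it had 4.19% (exact binomial 95% interval 1.70 to 8.45%) in old and 19.3% (12.3 to 27.9%) in young cells over 15 CpGs, the fewest calls of any of the 84 genes, and its start had no value at a minimum coverage of 10 reads. These intervals cover counting error only. Sdha stood at 7.33% in old and 4.20% in young cells, Ndufa9 at 10.5 and 7.66%, Ndufa4 at 8.72 and 8.69%, Ndufb9 at 10.9 and 4.83%, Cox7a2l at 5.93 and 9.05%, and Atp5g3 at 7.86 and 4.76%. Cox6b2, with RNA near 0 in old cells, was at 13.5% in old and 10.6% in young cells.

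Cox6a2 went against the other expressed genes. Its start was methylated at 91.1% (exact binomial 95% interval 88.6 to 93.2%) in old and 90.4% (87.6 to 92.8%) in young cells over 28 CpGs, from 619 calls in old and 532 in young cells. No region of any mark was listed within 1000 bases, where H3K27ac was measured in young cells only. The same held for Ndufs6, which was also expressed, and for Cox8c. Within 500 bases the methylation of Cox6a2 was 89.3% in old and 91.2% in young cells over 16 CpGs. Of 1563 genes with a mean of at least 100 CPM in old cells, 34 (2.18%) had over 80% methylation at the start in both ages, and of the 10 respiratory chain genes at that level Cox6a2 was the 1 that did, a comparison chosen after its values were seen. Cox8c and Cox7b2, nearly absent from the RNA, were also methylated, at 89.1 and 81.8% in old and 87.4 and 87.7% in young cells. Cox4i2, Cox7a1 and Ndufa4l2 lay in between, at 35.2, 31.3 and 32.5% in old and 30.7, 32.4 and 41.9% in young cells. Cox6a1, the common form, stood at 6.09% in old and 5.22% in young cells.

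**Figure D5:**
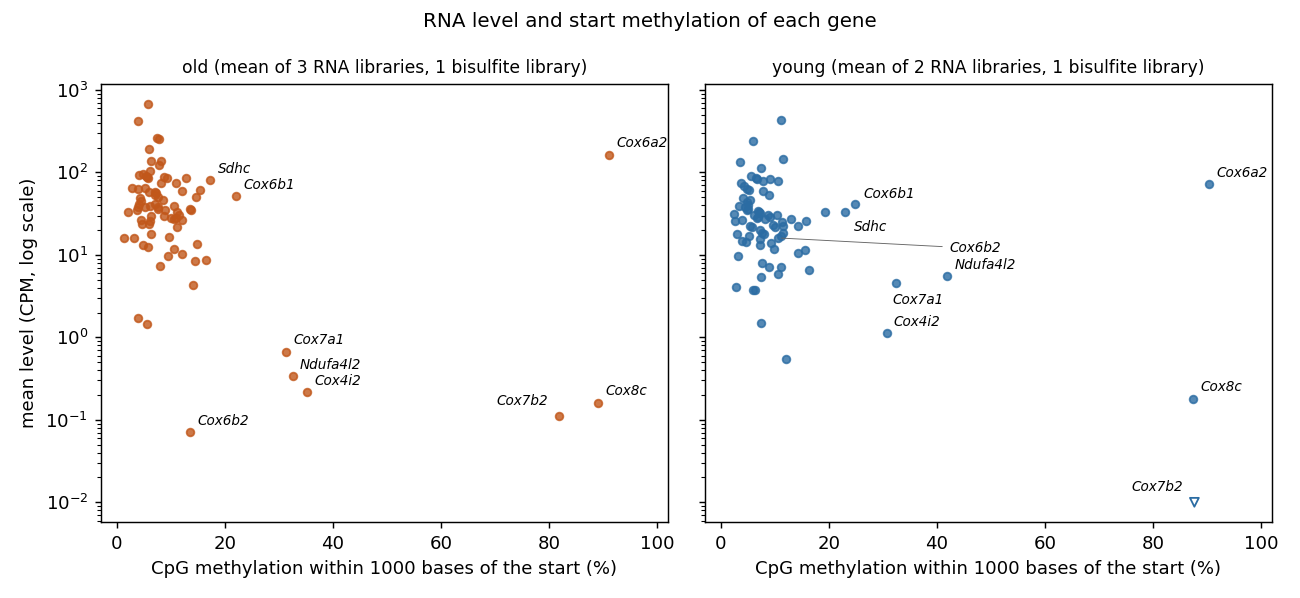
Each point is 1 gene, with the CpG methylation within 1000 bases of its start on the horizontal axis and its mean CPM on a logarithmic vertical axis, for old cells on the left and young cells on the right. Most genes lie at the upper left, Cox6a2 lies alone at the upper right with 91.1% in old and 90.4% in young cells, and an open triangle marks Cox7b2, with no count in young libraries, at the foot of the axis.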

How the data were processed

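RNA, histone marks and CpG methylation were measured in sorted β cells. The RNA table that the authors deposited gives raw read counts, unnormalized, for 28644 transcripts of 22869 genes. The submitters' processing notes name STAR, Bowtie 0.12.7, CASAVA 1.8.2, HOMER and edgeR, without steps, and build mm9. The sources used here do not say if counting used the strand. A table that the authors deposited as FPKM served for transcript positions and for relative lengths, as count divided by FPKM, which agreed between libraries within 5% for 100% of 8965 transcripts. Its 1 column that repeats another library was not used. HOMER made the H3K4me1 and H3K27ac lists, per the file headers. The H3K27me3 lists have no header, and the deposited score columns only ranked peaks. The deposited CpG tables give the methylated fraction and the read coverage per CpG, and calls were recovered as their product.

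Each gene was represented by its transcript with the most counts. Old and young (3 against 2 libraries) were tested with edgeR 4.0.16 in R 4.3.3 (TMM factors, filterByExpr, quasi-likelihood test, two-sided, Benjamini-Hochberg over 15544 genes, threshold 0.05), a procedure tested on simulated counts. Every sentence that gives an adjusted p refers to this test. DESeq2 1.42.0 was an alternative. The old libraries' ages and replicate numbers come from the labels. TPM values were computed from counts and relative lengths, without TMM factors. Methylation used CpGs with at least 5 reads at both ages and starts with at least 5 such CpGs. Genes were named by a rule: every gene past the threshold, the 2 with the largest and the 2 with the smallest fold change and the 2 highest in each complex, all isoform sets, core genes and genes that failed the filter; 1 gene under this rule is not reported here. The genes, lists and rules were chosen with earlier results of these data known.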

Additional observations from a re-analysis of the deposited data

How the results depend on the processing

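Of the counts of changed genes, 6 rose and 1 fell in the fit reported. RLE size factors gave 4 and 1 (2.42 and 8.8% of all genes rose and fell), library size alone 3 and 1 (1.92 and 9.2%), the longest transcript per gene 6 and 1 (3.19 and 7.94%), no filter on low counts 12 and 1 (3.94 and 7.99%), and DESeq2 14 and 1 (6.98 and 17.5% of genes with an adjusted p). Standard subunits alone gave 5 and 1; this choice and that of library size alone were made after seeing the data. Leaving out 1 library gave 1 to 16 rising and 1 to 3 falling genes, beside 0.268 to 13.9% and 1.81 to 18.2% of all genes. The median of all genes, -0.05 in the fit reported, was -0.17 with RLE size factors and -0.22 by library size alone, and that of the respiratory chain genes 0.46 and 0.42. Without a filter on low counts these medians were -0.27 and 0.65, and with DESeq2, which also changes the tool and the genes tested, -0.52 and 0.47. The summed level of complex II, at 1.48 on the log2 scale, was 1.06 without Sdha. That of complex IV, at 0.61, was 0.46 by library size alone, 0.49 with RLE size factors and 0.49 without its highest gene. Within 500 bases, 9 starts in old and 26 in young cells had an H3K4me1 peak (10.7 and 31.0%, with 17.0 and 30.7% of all starts), and 7 starts in young cells lay inside an H3K27me3 region (8.3%, with 25.4% of all starts). The median methylation difference stayed between -0.17 and 0.66 percentage points.

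Some genes changed direction, none of them past the threshold in the fit reported. Most had small differences, but Cox7a1 and Ndufa4l2 were at -2.75 and -4.02 there. Leaving out 1 library moved Atp5c1 between -0.17 and 0.73, Atp5g2 between -0.41 and 0.24, Atp5o between -0.71 and 0.28, Cox4i1 between -0.057 and 0.058, Cox7a1 between -3.72 and 2.19, Cox8a between -0.29 and 0.67, Ndufa4l2 between -5.00 and 5.91, Ndufa5 between -1.40 and 1.14, Ndufv1 between -0.20 and 0.61, Ndufv2 between -0.21 and 1.29, Uqcr10 between -0.30 and 0.23, Uqcrc1 between -0.21 and 0.27, Uqcrc2 between -0.27 and 0.71, and Uqcrq between -0.060 and 0.31 on the log2 scale. With RLE size factors and with DESeq2, Cox4i1 was at -0.095 and -0.089, Cox8a at -0.0066 and -0.0026, Uqcrc1 at -0.048 and -0.042, Uqcrc2 at -0.0087 and -0.0026, and Uqcrq at -0.023 and -0.016. By library size alone, Cox4i1 was at -0.133, Cox8a at -0.061, Ndufv1 at -0.020, Uqcrc1 at -0.090, Uqcrc2 at -0.031 and Uqcrq at -0.059. Without a filter, Atp5g2 was at 0.031 and Uqcr10 at 0.016. The cause was not tested. No paired analysis was possible because the young columns carry no replicate numbers. The young libraries' depth limits low genes such as Cox7b2 and Cox8c.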
